A study of Homo sapiens with 6 samples.

Results

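The 46 autophagy and mitophagy genes examined here comprised 41 genes of core autophagy and 5 genes of mitophagy, taken by symbol from a deposited table of 16798 human genes. They were followed in COV434 cells, an established human ovarian tumour line that the labels describe as granulosa cells. The 3 control samples had the genotype label WT, and the 3 treated samples had the genotype label CTX and a treatment label naming CTX (cyclophosphamide). The treatment was 15 µM 4HC (named in the study as 4-hydroxycyclophosphamide, the active metabolite of cyclophosphamide) for 24 h. The treated samples are called 4HC below, and no vehicle is named for the controls in the labels. All samples came from 1 cell line, and nothing in the labels says whether the replicates were separate cultures, so p-values measure only the spread between these samples. Total expected counts ranged from 16133786 to 16702316 per sample, and all 46 members passed the filter on low counts, with 31 counts as the lowest value of any member in any sample.

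Of the granulosa cell markers, FOXL2, FSHR, CYP19A1, STAR, INHBB and NR5A1 had at most 3 counts in any sample, and INHA, INHBA and HSD3B2 had at most 1.22 CPM (counts scaled to the library total). AMH averaged 5.19 CPM in the controls, HSD17B1 14.2 CPM and NR5A2 388 CPM. AMHR2 and CYP11A1 were not analysed here. The defining markers of granulosa cells were thus mostly absent, and the cells are called COV434 cells throughout.

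Macroautophagy encloses cytoplasm in a double membrane, the autophagosome, and delivers it to the lysosome. The ULK kinase complex starts the process, a lipid kinase complex built on PIK3C3 and BECN1 marks the membrane, lipid transfer proteins feed its growth, and conjugation enzymes attach ATG8 proteins (the LC3 and GABARAP families) to it, where they hold cargo receptors such as SQSTM1. Mitophagy is the selective removal of mitochondria, either through the kinase PINK1 and the ubiquitin chains that it modifies, or through receptors in the mitochondrial membrane such as BNIP3, BNIP3L and FUNDC1.

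The promoters of DRAM1, the member with the largest change, and of BNIP3, the lower mitophagy gene, are shown for reference, as both genes are described in detail below. Each is the 250 bases before the start site in RefSeq (GRCh38.p14), written 5′ to 3′ on the strand of the gene. DRAM1 lies at chr12:101877330-101877579 on the plus strand and BNIP3 at chr10:131981924-131982173 on the minus strand, where the capitals mark the E-box CACGTG, the sequence bound by basic helix-loop-helix factors including TFEB.
DRAM1: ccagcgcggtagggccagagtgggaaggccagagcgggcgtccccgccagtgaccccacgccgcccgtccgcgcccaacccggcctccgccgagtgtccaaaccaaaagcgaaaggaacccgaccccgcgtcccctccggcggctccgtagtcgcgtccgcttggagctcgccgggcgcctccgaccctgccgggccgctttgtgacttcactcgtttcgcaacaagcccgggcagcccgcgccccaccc
BNIP3: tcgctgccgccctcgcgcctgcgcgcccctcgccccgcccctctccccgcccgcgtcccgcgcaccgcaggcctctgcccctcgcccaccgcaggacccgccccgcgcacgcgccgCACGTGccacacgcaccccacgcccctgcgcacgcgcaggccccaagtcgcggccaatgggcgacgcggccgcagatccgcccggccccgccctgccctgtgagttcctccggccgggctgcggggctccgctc

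For 40 of the 46 members, 49 promoters of this length were at hand, and 4 of the 49 held CACGTG, against 7.61% of the 19394 promoters of genes in the table. Besides BNIP3 they were ATG3 (chr3:112561965-112561990, minus strand), TBK1 (chr12:64452079-64452104, plus strand) and ATG14 (chr14:55411836-55411861, minus strand). The 26-base windows around each E-box are printed so that the flanking bases can be compared.
ATG3: tttctcacgtCACGTGccgggagagt
BNIP3: gcacgcgccgCACGTGccacacgcac
TBK1: ggccgtcggtCACGTGgcctccggcc
ATG14: aacaaaatccCACGTGactggctctc

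The first base of the motif lay 18 bases before the start site in ATG3, 21 in ATG14, 31 in TBK1 and 134 in BNIP3. In the comparison below, TBK1 was called higher, BNIP3 was called lower and ATG3 and ATG14 were not called. The call of TBK1 was lost in 3 and that of BNIP3 in 7 of 15 alternative settings of the processing. The longer form TCACGTGA, which contains CACGTG and is the core of the lysosomal gene element bound by TFEB, was in no member promoter and in 1.22% of all promoters. The p53 response element consensus was in no member promoter and in 3 of the 19394 promoters (0.02%), both strands being searched for every motif. It was so rare in this window that its absence from 49 member promoters cannot tell whether p53 acts on these genes. These searches say only whether the letters occur in the window.

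To ask whether 4HC changed the expression of the autophagy machinery, the 3 4HC samples were compared with the 3 control samples over all 12368 genes that passed the filter, with edgeR's quasi-likelihood test and a Benjamini-Hochberg adjusted p under 0.05 as the threshold for a call. Members were changed in both directions and by little. Of the 46, 11 were higher in 4HC, 7 were lower and 28 were not called. The lysosomal membrane protein gene DRAM1 rose 2.53-fold, and the fold changes of the other 17 called members lay between 0.805 and 1.21. Over all genes, 36.4% were called, 19.2% higher and 17.1% lower, so the members' share of 39.1% was near that of the table. The median log2 fold change was 0.00 over the members and 0.005 over all genes tested, and the median absolute value was 0.10 over the members and 0.13 over all genes. By a fold change of at least 2 with an unadjusted p under 0.05, 1 member (DRAM1) was a DEG, and 1.15% of all genes were. These are RNA levels in bulk cultures, in which a change in the number of cells expressing a gene and a change in RNA per cell cannot be told apart.

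The values of the 3 samples of each group did not overlap in 21 of the 46 members, against 45.3% of all genes tested, and 16 of the 21 were called. The 5 genes without overlap that were not called were RB1CC1, WIPI2, ATG7, ATG10 and ATG12. TAX1BP1 and BNIP3 were called although their groups overlapped.

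**Figure D1:**
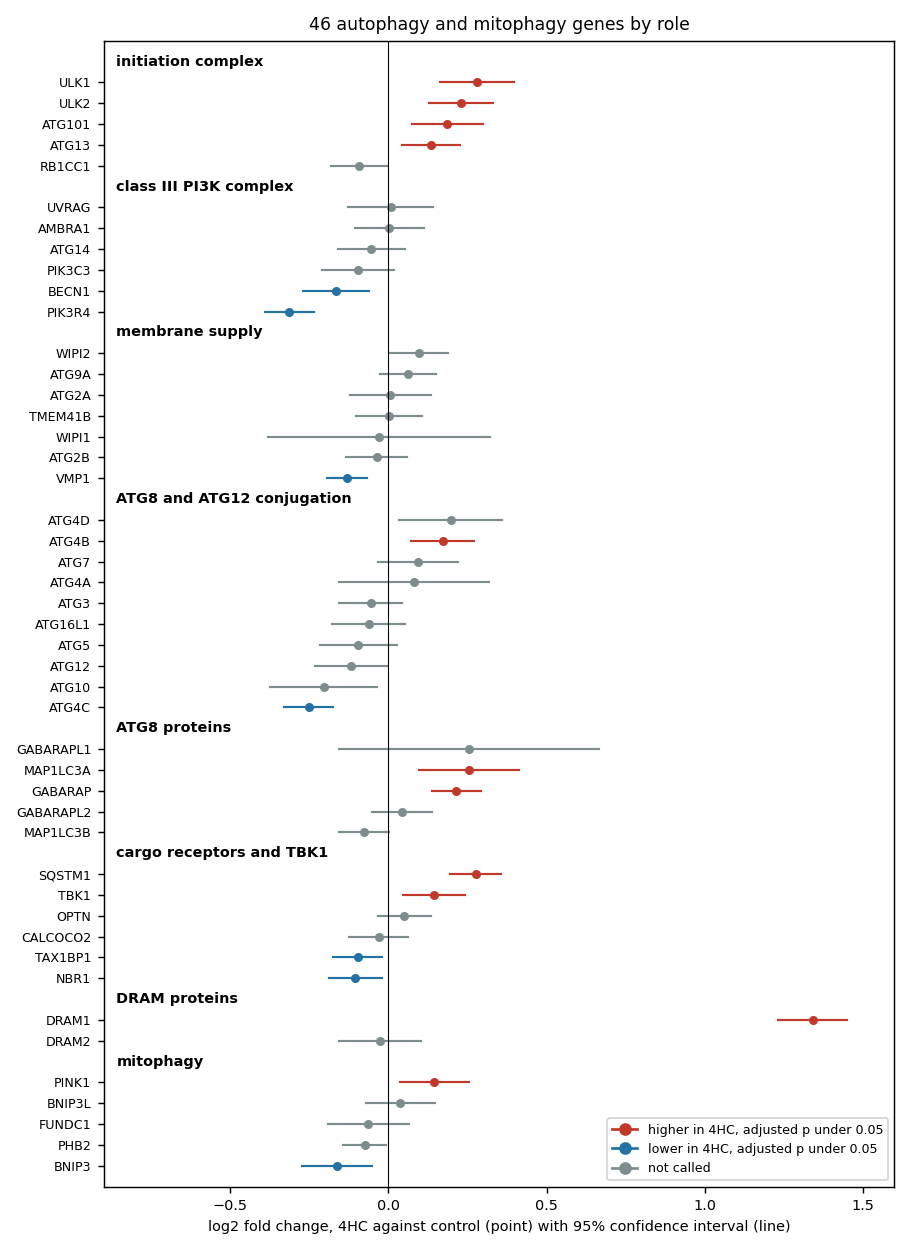
Log2 fold change of each of the 46 members (horizontal axis, 4HC against control, point) with its 95% confidence interval (line), grouped by role on the vertical axis and coloured by the call of edgeR's quasi-likelihood test. DRAM1 stands apart at 1.34, and the other called members lie between -0.31 and 0.28.

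Core autophagy and mitophagy each held calls in both directions. Of the 41 core genes, 10 were higher, 6 were lower and 25 were not called, and their median log2 fold change was 0.00. Of the 5 mitophagy genes, PINK1 was higher, BNIP3 was lower and BNIP3L, FUNDC1 and PHB2 were not called, with a median of -0.06. When the cargo receptors and the kinase TBK1, which act in mitophagy as well as in other selective autophagy, were counted with mitophagy, 3 of 11 genes were higher and 3 were lower, and 8 higher and 4 lower remained among 35 core genes. With so few mitophagy genes, no difference between these 2 groups was tested.

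DRAM1 encodes a lysosomal membrane protein first described as a p53 target that promotes autophagy (NCBI gene 55332). Its span in the deposited table is chr12:101875301-101925677, which begins upstream of the RefSeq start site used for the promoter above. It was at 28.5, 27.1 and 29.5 CPM in control samples and 69.8, 74.2 and 71.7 CPM in 4HC. Every 4HC sample was far above every control sample, and the spread within each group was small beside the gap. The log2 fold change was 1.34 ± 0.05 (SE, n = 3 per group), with an adjusted p of 4.6e-27 by edgeR's quasi-likelihood test. Both DRAM1 transcripts at 10% or more of the gene kept overlapping shares between the groups, the main one holding 75.0% of the counts in the controls and 72.5% in 4HC. Its relative DRAM2 had a log2 fold change of -0.03 and was not called.

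The initiation complex had the most genes called higher of any role, 4 of 5, against 19.2% of all genes tested. The members were chosen with earlier results of these data known. No excess can therefore be read from this count or from those of the other roles. ULK1, ULK2, ATG101 and ATG13 were higher in 4HC, and RB1CC1 was not called at -0.09. The catalytic kinase ULK1 was at 31.3, 33.0 and 31.6 CPM in control samples and 41.4, 38.2 and 36.9 CPM in 4HC. All 4HC values were above all control values, with a log2 fold change of 0.28 ± 0.06 and an adjusted p of 0.00013 by edgeR's quasi-likelihood test. The related kinase ULK2 was at 47.0, 46.1 and 46.8 CPM in control samples and 55.4, 54.0 and 54.5 CPM in 4HC. Its groups were tight and separate, with a log2 fold change of 0.23 ± 0.05 and an adjusted p of 0.00026 by the same edgeR test.

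ATG101, a small subunit that stabilises ATG13, was at 40.7, 44.4 and 40.0 CPM in control samples and 45.6, 45.8 and 51.0 CPM in 4HC. The lowest 4HC sample was close to the highest control sample, and the log2 fold change was 0.19 ± 0.06. ATG13, the regulatory subunit that ties the kinase to its scaffold, rose by 0.13 on the log2 scale with an adjusted p of 0.016 by edgeR's quasi-likelihood test. RB1CC1 encodes that scaffold, and its control values of 89.5, 82.4 and 85.6 CPM lay just above its 4HC values of 82.0, 80.2 and 79.1 CPM. The scaffold gene thus did not pass the test, although its groups did not overlap.

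The class III PI3K complex, which produces the lipid that marks the growing membrane, had 2 of its 6 genes called, both lower. PIK3R4, the regulatory subunit that anchors the lipid kinase, was at 177, 165 and 174 CPM in control samples and 138, 136 and 142 CPM in 4HC. The groups were well apart, with a log2 fold change of -0.31 ± 0.04 and an adjusted p of 2e-09 by edgeR's quasi-likelihood test, the largest decrease among the members. BECN1, the scaffold of the complex and a binding partner of BCL2 proteins, fell from 53.8, 52.7 and 55.6 CPM in the controls to 48.8, 50.4 and 45.4 CPM in 4HC. The 4HC values of BECN1 were all below the control values, with a log2 fold change of -0.16 and an adjusted p of 0.010 by the same edgeR test.

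The kinase gene PIK3C3 (-0.10), the autophagy-specific subunit ATG14 (-0.05), the endosomal alternative UVRAG (0.01) and the regulator AMBRA1 (0.00) were not called. The catalytic subunit was thus not called. The confidence interval of PIK3C3 ran from -0.21 to 0.02, which includes a fall as large as that of BECN1 (-0.16). Among 7 genes that supply membrane, only VMP1 was called. VMP1 encodes an endoplasmic reticulum scramblase needed for autophagosome formation, and it was at 480, 474 and 487 CPM in control samples and 436, 446 and 434 CPM in 4HC. The groups did not overlap although the log2 fold change was only -0.13, with an adjusted p of 0.00070 by edgeR's quasi-likelihood test. TMEM41B, which encodes a scramblase that works with VMP1, was at 0.00 and was not called. The lipid transfer genes ATG2A (0.01) and ATG2B (-0.04), the vesicle protein gene ATG9A (0.06) and the lipid-binding WIPI1 (-0.03) and WIPI2 (0.10) were also not called.

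The 10 conjugation genes had 1 call in each direction, and both calls were in the ATG4 proteases, which trim ATG8 proteins before conjugation and release them afterwards. ATG4B, the main protease for LC3, was at 50.8, 50.3 and 51.3 CPM in control samples and 56.1, 57.3 and 58.3 CPM in 4HC. The groups were separate, with a log2 fold change of 0.17 ± 0.05 and an adjusted p of 0.0049 by edgeR's quasi-likelihood test. ATG4C was at 224, 209 and 228 CPM in control samples and 176, 194 and 186 CPM in 4HC. It fell by 0.25 on the log2 scale with an adjusted p of 4.3e-07 by the same edgeR test, so 2 proteases of one family changed in opposite directions.

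ATG4D, at a log2 fold change of 0.20 with an adjusted p of 0.050, and ATG10, at -0.20 with an adjusted p of 0.051 by edgeR's quasi-likelihood test, were just outside the threshold. The other conjugation genes were not called: the activating enzyme gene ATG7 was at 0.09, the transfer enzyme gene ATG3 at -0.06, ATG5 at -0.09, ATG12 at -0.12, ATG16L1 at -0.06 and ATG4A at 0.08.

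**Figure D2:**
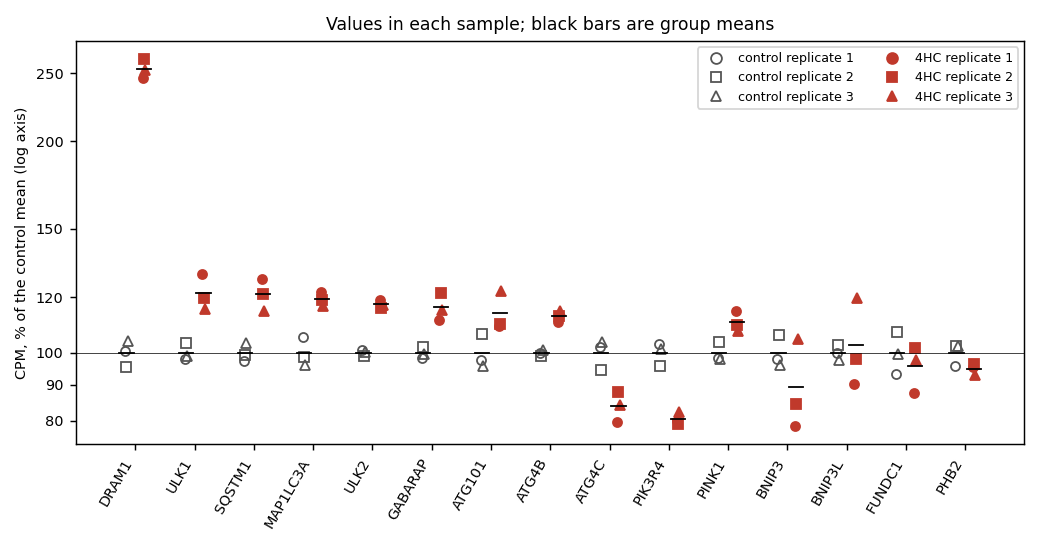
CPM of 15 members in each sample as a percentage of the mean of the 3 controls (log axis), with open symbols for control and filled symbols for 4HC samples, a marker shape for each replicate number and a black bar for the group mean. DRAM1 lies near 250% in 4HC, PIK3R4 near 80%, and the filled symbols of BNIP3 and BNIP3L spread most, with 4HC replicate 3 highest.

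Of the 5 ATG8 proteins, which coat the autophagosome and bind cargo receptors, 2 were higher and 3 were not called. GABARAP was at 138, 143 and 140 CPM in control samples and 156, 171 and 162 CPM in 4HC. All 4HC samples were above all controls, with a log2 fold change of 0.22 ± 0.04 and an adjusted p of 1.1e-05 by edgeR's quasi-likelihood test. MAP1LC3A was at 15.9, 14.9 and 14.5 CPM in control samples and 18.5, 17.9 and 17.6 CPM in 4HC. The groups did not overlap, with a log2 fold change of 0.25 ± 0.08 and an adjusted p of 0.0089 by the same edgeR test.

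MAP1LC3B, the LC3 gene most often used as an autophagosome marker, was at 139, 138 and 131 CPM in control samples and 127, 126 and 134 CPM in 4HC. Its 4HC replicate 3 lay among the controls, and the log2 fold change of -0.08 had an adjusted p of 0.12 by edgeR's quasi-likelihood test. GABARAPL1 was the least abundant ATG8 gene, at 1.97, 1.91 and 2.35 CPM in control samples and 2.41, 2.28 and 2.75 CPM in 4HC. Its groups overlapped, and the confidence interval of its log2 fold change of 0.26 ran from -0.16 to 0.67, so neither direction could be told at this depth. GABARAPL2 was at 66.3, 67.3 and 69.0 CPM in control samples and 65.9, 69.6 and 73.1 CPM in 4HC, and was not called. MAP1LC3B and GABARAPL1 have near-identical copies elsewhere in the genome (MAP1LC3B2 and GABARAPL3), and how reads shared by such copies were divided was not tested. MAP1LC3B2 averaged 0.879 CPM in the controls, and GABARAPL3 was not analysed here.

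Compared per length as TPM (counts corrected for transcript length and scaled to the library total), GABARAP was the most abundant ATG8 gene, with a mean of 213 TPM in the controls and 246 TPM in 4HC. GABARAPL2 followed at 154 and 158 TPM, MAP1LC3B at 114 and 108 TPM, MAP1LC3A at 35.0 and 41.3 TPM, and GABARAPL1 at 2.04 and 2.46 TPM. The order of the 5 genes was the same in both groups. Over all members, PHB2 was the most abundant at 450 TPM in the controls, followed by VMP1 at 221 TPM and GABARAP, and the mean of ULK1 in the controls was 10.2 TPM.

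**Figure D3:**
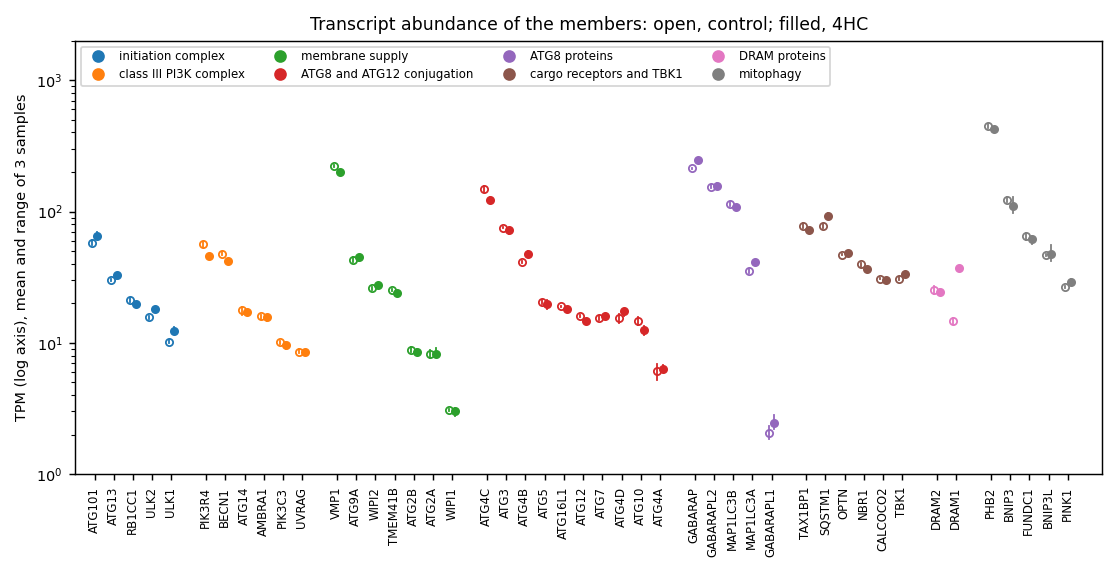
Mean TPM of each member (log axis) in control (open) and 4HC samples (filled), with the range of the 3 samples as a line, grouped and coloured by role. Levels run from 2.04 TPM for GABARAPL1 to 450 TPM for PHB2 in the controls, and the open and filled symbols of a gene lie close together except in DRAM1, which went from 14.8 to 37.2 TPM.

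The cargo receptors, which bind ubiquitinated cargo and ATG8 proteins at once, moved in both directions. SQSTM1, which encodes p62, was at 123, 125 and 130 CPM in control samples and 160, 153 and 144 CPM in 4HC. The lowest 4HC sample was above the highest control, with a log2 fold change of 0.28 ± 0.04 and an adjusted p of 1.7e-07 by edgeR's quasi-likelihood test. The transcript table lists SQSTM1 transcripts at 2 genome placements with equal counts, which are summed in the value of the gene.

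TBK1, the kinase that phosphorylates SQSTM1 and OPTN, was at 54.9, 53.4 and 52.2 CPM in control samples and 57.9, 58.7 and 60.7 CPM in 4HC. It rose by 0.14 on the log2 scale with an adjusted p of 0.018 by edgeR's quasi-likelihood test, and its groups did not overlap. NBR1 (-0.10, adjusted p of 0.042) and TAX1BP1 (-0.10, adjusted p of 0.045), a pair of receptors that act with SQSTM1, fell by the same edgeR test. Both were close to the threshold and lost the call in 11 and 10 of 15 alternative settings, with -0.09 for NBR1 and -0.07 for TAX1BP1 without control replicate 1, and -0.09 and -0.08 without 4HC replicate 1. Their calls were also lost without control replicate 3 (-0.10 for both) and without 4HC replicate 3 (-0.11 for NBR1 and -0.08 for TAX1BP1), and that of NBR1 without 4HC replicate 2 (-0.11). OPTN (0.05) and CALCOCO2 (-0.03), which bind ubiquitin on damaged mitochondria and on bacteria, were not called.

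PINK1, the kinase that accumulates on damaged mitochondria and phosphorylates ubiquitin there (NCBI gene 65018, chr1:20633458-20651511), was at 39.5, 41.5 and 39.4 CPM in control samples and 46.1, 44.0 and 43.1 CPM in 4HC. All 4HC values were above the control values. The log2 fold change was 0.14 ± 0.05 with an adjusted p of 0.032 by edgeR's quasi-likelihood test, and the call was lost in 7 of 15 alternative settings. Among these were the fits without control replicate 1 (0.13), control replicate 3 (0.13), 4HC replicate 1 (0.12) and 4HC replicate 2 (0.15).

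BNIP3, an outer membrane receptor whose transcription is known to be driven by hypoxia-inducible factor (NCBI gene 664, chr10:131967684-131981923), was at 97.0, 105 and 94.8 CPM in control samples and 77.9, 83.7 and 103 CPM in 4HC. Replicates 1 and 2 of 4HC were below every control, and 4HC replicate 3 lay within the control range. The log2 fold change was -0.16 ± 0.06 with an adjusted p of 0.017 by edgeR's quasi-likelihood test. Without 4HC replicate 3 it was -0.29, and without 4HC replicate 1 it was -0.08 with an adjusted p of 0.27 by edgeR's quasi-likelihood test. The call was also lost without control replicate 2 (-0.12) and without 4HC replicate 2 (-0.13). The DESeq2 Wald test gave an adjusted p of 0.37, so the lower level of BNIP3 depended on the samples and the test.

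BNIP3L, the related receptor known for clearing mitochondria from maturing red cells, was at 94.2, 96.9 and 92.2 CPM in control samples and 85.3, 92.4 and 113 CPM in 4HC. Its 4HC samples lay on both sides of the controls, with replicate 3 again the highest, and its log2 fold change was 0.04 and not called, turning to -0.09 without 4HC replicate 3. FUNDC1, a receptor with a part in hypoxic mitophagy, was at 29.6, 34.1 and 31.7 CPM in control samples and 27.9, 32.3 and 31.1 CPM in 4HC. PHB2, an inner membrane protein that binds LC3 once the outer membrane is broken, was at 299, 320 and 320 CPM in control samples and 299, 302 and 291 CPM in 4HC. Neither FUNDC1 nor PHB2 was called, and in both the groups overlapped.

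Because BNIP3 and BNIP3L were both highest in 4HC replicate 3, other known targets of hypoxia-inducible factor were examined in the same samples, from a list of 14 genes compiled after these values had been seen. Of the 9 targets at a mean of 5 CPM or more, 8 were highest in replicate 3 among the 4HC samples, against 35.5% of the 10375 genes at that level. PDK1, which restrains pyruvate entry into mitochondria, was at 99.2, 104 and 96.0 CPM in control samples and 80.0, 86.5 and 103 CPM in 4HC. P4HA1, a collagen hydroxylase subunit, was at 76.2, 75.5 and 75.1 CPM in control samples and 63.9, 67.0 and 78.6 CPM in 4HC. In both genes replicates 1 and 2 of 4HC were below the controls and replicate 3 was not. The other targets at that level differed from this. In VEGFA, PFKFB3, PFKFB4, KDM3A, SLC2A1, LDHA and EGLN1 every 4HC sample, replicate 3 included, was below every control. The gap was clear in SLC2A1 (57.8 CPM in 4HC replicate 3, 65.2 CPM in the lowest control). It was narrow in EGLN1 (88.5 and 88.6 CPM). Of the 9 targets, 7 were called lower in 4HC, against 17.1% of all genes tested, and 4 of these 7 held in all 15 alternative settings. PDK1 was called in 6 of them, and lost its call without 4HC replicate 1 (-0.07), 4HC replicate 2 (-0.12) or control replicate 2 (-0.12). PFKFB3 was called in 10 and EGLN1 in 13. Since the list was compiled after the values of BNIP3 and BNIP3L had been seen, no excess over all genes can be read from these counts of targets. Among the members as a whole, 15, 15 and 16 were highest in 4HC replicates 1, 2 and 3, so replicate 3 did not stand apart in the other autophagy genes. The part of the hypoxia-related genes in the BNIP3 result was not tested.

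**Figure D4:**
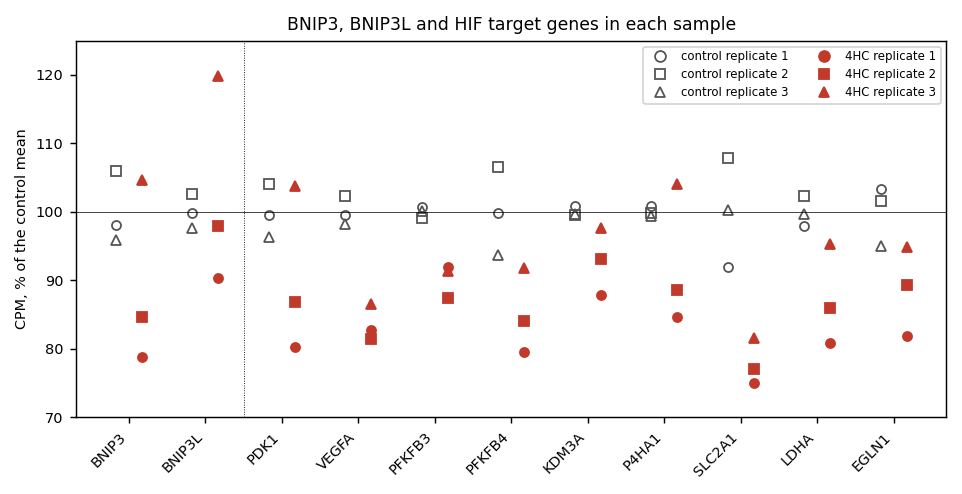
CPM of BNIP3, BNIP3L and 9 targets of hypoxia-inducible factor in each sample as a percentage of the mean of the 3 controls, with open symbols for control, filled symbols for 4HC samples and a marker shape for each replicate number. The filled triangle of 4HC replicate 3 is the highest 4HC value in both members and in 8 of the 9 targets.

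The calls differed in how far they held when the processing was changed. In all 15 alternative settings, 9 of the 18 called members kept their call: DRAM1, PIK3R4, ULK1, ULK2, SQSTM1, ATG4B, ATG4C, GABARAP and VMP1. ATG101 (0.16), BECN1 (-0.14), MAP1LC3A (0.23), TBK1 (0.13) and ATG13 (0.13) lost their call without control replicate 3. ATG101 (0.13), BECN1 (-0.12), TBK1 (0.12) and ATG13 (0.12) also lost it without 4HC replicate 3, and ATG13 without 4HC replicate 1 (0.11). Without control replicate 3, 6 members were called higher and 4 lower, and without 4HC replicate 1, 9 were called higher and 4 lower. Calls were gained by ATG4D (0.27), ATG10 (-0.24) and RB1CC1 (-0.12) without control replicate 2, by ATG4D (0.24), ATG10 (-0.27) and MAP1LC3B (-0.11) without 4HC replicate 3, and by PHB2 (-0.11) without control replicate 1.

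The wider pathway was described with 90 further genes, of which 85 could be tested. Of these, 20 were higher in 4HC, 24 were lower and 41 were not called, a called share of 51.8% against 36.4% of all genes tested. The genes were listed with earlier results of these data known, so the larger share cannot be read as a property of the pathway. Of the calls, 12 of the 20 higher and 12 of the 24 lower held in all 15 alternative settings, and the median log2 fold change of the 85 genes was 0.00. By the fold change of at least 2, 1 was a DEG, TP53INP1.

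Among 11 other genes of the core machinery, 5 rose and 1 fell, against 19.2% higher and 17.1% lower over all genes tested. As this list was chosen with earlier results of these data known, no excess can be read from it. TP53INP1, a p53-induced protein that binds ATG8 proteins, was at 59.1, 59.1 and 58.3 CPM in control samples and 125, 123 and 122 CPM in 4HC. It rose by 1.07 on the log2 scale with an adjusted p of 4.6e-27 by edgeR's quasi-likelihood test, with no overlap of the groups. EI24, another gene first described as p53-induced, with a part in autophagosome formation, rose by 0.59 on the log2 scale to a mean of 452 CPM in 4HC. ATG16L2, a relative of ATG16L1, went from 22.0 to 37.8 CPM, while ATG16L1 itself was not called.

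In the mitochondrial group, 14 of 29 further mitophagy genes fell and 3 rose, against 17.1% lower and 19.2% higher over all genes tested. Of these, 8 of the 14 and 1 of the 3 kept their call in all 15 alternative settings. Among the weakest were FKBP8, called in 8 of 15 settings and at -0.05 without control replicate 2, and PGAM5, called in 6 of 15 and at -0.07 without that sample. The median log2 fold change of the 29 genes was -0.09. Their list was also chosen with earlier results of these data known, so no excess over all genes can be read from it. PPTC7, a mitochondrial phosphatase known to limit BNIP3 and BNIP3L protein, was at 238, 236 and 245 CPM in control samples and 153, 156 and 157 CPM in 4HC. It fell by 0.63 on the log2 scale with an adjusted p of 8.5e-21 by edgeR's quasi-likelihood test, the smallest adjusted p in the group. Among the 29 were 5 genes of the outer membrane import complex, on which PINK1 is held, and 4 of these 5 fell. They included the receptor TOMM20 (-0.29) and the channel TOMM40 (-0.26). This count, from a part of that list, cannot be read as an excess over the 17.1% of all genes called lower. The 3 genes that rose were USP15, RHOT2 and TBC1D15, and USP15 lost its call without 4HC replicate 2 (0.13) or 4HC replicate 3 (0.12). They, FKBP8 and PGAM5 were named after their values were seen.

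**Figure D5:**
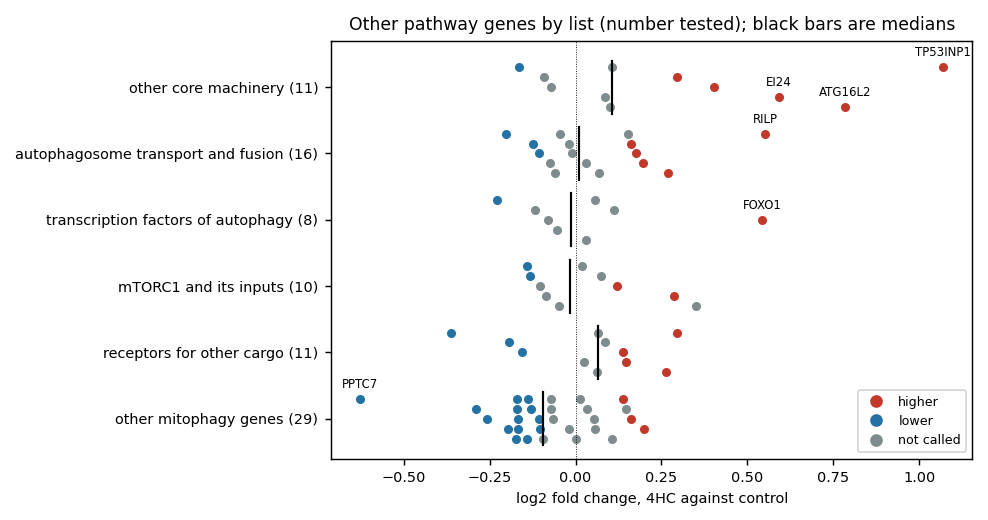
Log2 fold change of the 85 further pathway genes tested (horizontal axis, 4HC against control), 1 point per gene, in 6 lists on the vertical axis, coloured by the call of edgeR's quasi-likelihood test, with the median of each list as a black bar. TP53INP1 at 1.07 and PPTC7 at -0.63 are the extremes, and points of the other mitophagy genes lie mostly left of 0.

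The remaining lists were mixed, and 19.2% of all genes tested were higher and 17.1% lower. These lists were also chosen with earlier results known, so no excess can be read from their counts. Of 16 genes of autophagosome transport and fusion, 5 rose and 3 fell, with the lysosome motility adaptor RILP at 0.55 (0.37 and not called without 4HC replicate 2), the tethering subunit VPS18 at 0.27 and the tethering protein TECPR1 at -0.20 (not called without control replicate 1, at -0.18, or without 4HC replicate 2, at -0.15). Of 8 transcription factors of autophagy genes, FOXO3 fell by 0.23 on the log2 scale, and FOXO1 rose from a mean of 1.86 CPM in the controls to 2.71 CPM in 4HC. The log2 fold change of FOXO1 was 0.54 with an adjusted p of 0.035 by edgeR's quasi-likelihood test, and its call held in 7 of 15 alternative settings, being lost without 4HC replicate 2 (0.42), control replicate 2 (0.47) or control replicate 3 (0.53). TFEB, the main activator of lysosomal genes, had a log2 fold change of 0.06 and was not called. Of 10 genes of the growth-signalling complex mTORC1 and its inputs, the kinase gene STK11 (0.29) and TSC2 (0.12) rose and AKT1S1 (-0.14) and RHEB (-0.13) fell. AKT1S1 lost its call without control replicate 2 (-0.11). TSC2, whose groups overlapped, was called in 4 of 15 alternative settings and lost its call without control replicate 1 (0.11), control replicate 3 (0.08), 4HC replicate 1 (0.08) or 4HC replicate 2 (0.13). Of 11 receptors for other cargo, 4 rose and 3 fell, with the endoplasmic reticulum receptor TEX264 at 0.30, CALCOCO1 at 0.26 and the glycogen receptor STBD1 at -0.36. NCOA4, the receptor for ferritin, had a log2 fold change of 0.08 with an adjusted p of 0.073 by edgeR's quasi-likelihood test, and it was called without 4HC replicate 1 (0.10).

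The transcript table had 278 entries for the members, which came to 269 transcripts once those of SQSTM1 and ATG16L1 listed at a second genome placement were summed. At 10% or more of the gene in either group, 23 members had 1 transcript and 23 had 2 or more, which together had 63 such transcripts. The shares of 3 of these (4.76%) did not overlap between the groups, against 12.6% of 20351 such transcripts over all genes. A minor BECN1 transcript (XM_017025264) held 9.6%, 10.0% and 10.8% of BECN1 in the controls and 4.5%, 9.2% and 4.8% in 4HC. A minor ATG3 transcript (NM_001278712) held 8.7%, 7.9% and 10.2% in the controls and 11.6%, 10.9% and 10.5% in 4HC. An SQSTM1 transcript (NM_001142299) held 13.4%, 18.9% and 14.6% in the controls and 11.9%, 11.4% and 10.2% in 4HC. The main ATG4C transcript (XM_005271288), singled out after its values were seen, held 81.2%, 82.2% and 79.8% of ATG4C in the controls and 72.7%, 71.3% and 67.9% in 4HC. These shares are estimates from reads that several transcripts can share, and no test was run on them.

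Of 44 members with a usable span in the table, 19 overlapped the span of another gene. Among them were the called genes ULK2, ATG13, ATG101, BECN1, PIK3R4, VMP1, ATG4B, NBR1, TAX1BP1, TBK1, PINK1 and BNIP3. The use of strand in the counting is not given in the sources used here, so reads in such overlaps could not be assigned with certainty. DRAM1, ULK1, GABARAP, MAP1LC3A and ATG4C overlapped no other gene of the table.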

How the data were processed

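Total RNA of 3 control and 3 4HC samples of COV434 cells was sequenced. Per the labels, the authors filtered reads with SOAPnuke. The submitters' processing notes name HISAT2, Bowtie2, RSEM 1.3.1, DESeq2 1.4.5 and GRCh38.p13. The deposited gene and transcript tables hold expected counts per sample, of which 85.5% of gene values were whole. They also hold TPM and FPKM values made by the authors, which keep no record of depth. The authors' own fold changes and p-values in the tables were not used. A second gene table held the same values.

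Expected counts were rounded and tested with edgeR 4.0.16 (filterByExpr, TMM scaling, quasi-likelihood test, condition as the only term, R 4.3.3). Benjamini-Hochberg adjustment ran over all 12368 genes tested, of 16798 protein-coding genes. An exact permutation test of 3 against 3 samples cannot go below a two-sided p of 0.1, so calls rest on the spread pooled across genes. CPM values used TMM scaling. The SE was derived from the log2 fold change and the F statistic of the quasi-likelihood test, and 95% confidence intervals were built from it. The script was tested on simulated data with 200 changed genes. It recovered 48.5% of genes changed by 0.25 on the log2 scale, 90.9% of those changed by 0.5 and 95.5% of those changed by 1. A member that was not called may therefore still have changed by a small amount.

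Values by sample were given for the 10 called members with the largest absolute log2 fold change, the mitophagy genes, the ATG8 proteins, SQSTM1 and DRAM1, and for further members chosen after their values were seen (RB1CC1, BECN1, VMP1 and TBK1). Of the other pathway lists, up to 3 called genes per list at 5 CPM or more were named, with TFEB, TP53INP1 and NCOA4, and the other names were chosen after their values were seen. The members and lists were chosen with earlier results of these data known. Replicates of a group differed by more than counting noise, with a chi-square per gene of 1.7 to 2.46. Alternatives were DESeq2 1.42.0, limma 3.58.1 on log2(TPM + 1), log2(TPM + 0.1) and log2(FPKM + 1), other size factors, filters on low counts, a replicate block and leaving out each sample. Promoters were matched by NCBI gene number to RefSeq (GRCh38.p14), entries of a transcript at several genome placements were summed, and protein sequences were not analysed here. For 1 gene of the other pathway lists, results are not reported here.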

Additional observations from a re-analysis of the deposited data

How the results depend on the processing

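The counts of called members depended on the test. DESeq2 called 7 members higher and 4 lower, against 11 and 7, and limma on log2(FPKM + 1) called 4 lower. The single calls in mitophagy were lost in several settings. DESeq2 and limma on log2(TPM + 1) and log2(TPM + 0.1) called 0 higher and 0 lower, limma on log2(FPKM + 1) called 0 lower, and counting the cargo receptors and TBK1 with mitophagy gave 3 and 3. Of the other pathway genes, limma on log2(TPM + 1) and log2(TPM + 0.1) called 13 higher, against 20, and limma on log2(FPKM + 1) called 15 lower, against 24. Over all genes DESeq2 called 3357, against 4497. The median log2 fold change of core autophagy genes was 0.0026, and became 0.0234 with library size only, -0.015 with log2(TPM + 1) and -0.0165 with log2(TPM + 0.1). The cause was not tested.

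Leaving out 1 sample at a time gave 6 to 12 members higher and 4 to 8 lower, 6 to 11 core genes higher and 3 to 8 lower, and 0 to 1 mitophagy genes higher and 0 to 2 lower. The lowest counts of core genes came without control replicate 3.

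The replicate numbers did not pair the samples: the deviations of same-numbered samples correlated at -0.025, 0.046 and 0.065, and only number 3 correlated best with its own. With a replicate block, 11 members were higher, 5 were lower and 4213 genes were called in all, NBR1 and TAX1BP1 losing their calls.

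Of 270 combinations of a called member and an alternative, 220 kept the call and 50 lost it, with the direction unchanged in all 270. Among 28 members not called, 14 combinations gained a call. The log2 fold change of some genes that were not called changed sign under some settings. For UVRAG it was -0.015 on log2(TPM + 1), -0.0165 on log2(TPM + 0.1) and -0.0181 to 0.0319 without 1 sample. For AMBRA1 it was -0.0027 with DESeq2, -0.0026 with its size factors in edgeR, -0.0005 with no filter, -0.0064 on log2(TPM + 1), -0.0068 on log2(TPM + 0.1) and -0.0349 to 0.0496 without 1 sample. For ATG2A it was -0.0059 on log2(TPM + 1), -0.0067 on log2(TPM + 0.1) and -0.065 to 0.0563 without 1 sample. For TMEM41B it was -0.003 with DESeq2, -0.0031 with its size factors, -0.001 with no filter, -0.0003 with at least 10 counts in every sample, -0.0595 on log2(TPM + 1), -0.0617 on log2(TPM + 0.1), -0.0323 on log2(FPKM + 1) and -0.0318 to 0.0298 without 1 sample. For WIPI1 it was 0.001 on log2(FPKM + 1) and -0.0685 to 0.0268 without 1 sample. Without 1 sample, it ran from -0.0739 to 0.0008 for ATG2B, -0.0165 to 0.1683 for ATG4A, -0.0799 to 0.0223 for DRAM2, -0.0877 to 0.1227 for BNIP3L and -0.0219 to 0.1759 for TFEB.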
